A study of Mus musculus with 18 samples.

Results

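The genes described here are 33 of the 55487 genes in a count table of mouse retinal cells. They are the genes of the unfolded protein response, the stress response of the endoplasmic reticulum (ER), and of the chaperones that fold proteins inside it. The genes were chosen by name for their known roles, and all 33 were found in the table. They comprised 9 chaperones and co-chaperones of the ER lumen, 2 lectin chaperones, 5 disulfide isomerases, 3 stress sensors, 3 transcription factors, 7 genes of ER-associated degradation and 4 genes that the PERK and ATF4 branch of the response turns on.

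Secreted and membrane proteins are folded in the ER. When unfolded proteins collect there, the chaperone BiP (Hspa5) leaves the sensors IRE1 (Ern1), PERK (Eif2ak3) and ATF6, which then signal through spliced XBP1, through ATF4 and through cleaved ATF6. These factors raise the transcription of chaperones, of folding enzymes and of the machinery that exports misfolded proteins for degradation, while PERK also slows translation. Rods and other secretory or membrane-rich cells of the retina, and microglia, the resident macrophages of the retina, all rely on this folding machinery.

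The cells came from dissociated retinas of Bmal1f/f mice (controls), which carry floxed copies of the clock gene Bmal1 (Arntl in the table), and of Bmal1-mg/-mg mice (knockouts), labelled as a knockout of Bmal1 in microglia. Live CD11b-positive cells (microglia) and live CD11b-negative cells (the other retinal cells, called retina below) were collected by flow sorting, with dead cells left out by DAPI. There were 18 libraries, in each fraction 4 from controls and 5 from knockouts. The labels used here name neither the Cre line nor the age of the mice. They do not say whether samples of a group came from separate animals, so the p-values rest on sample-to-sample spread alone, which may be technical.

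The libraries held 32277156 to 47563119 counts, and 3 counts stood for 0.0631 to 0.0929 CPM (library-size-scaled counts, normalised by TMM over all 18 libraries). Each library was made from nanogram amounts of RNA by amplification, so counts are not independent molecules and such floors cover counting error only. Arntl had 21.8, 15.5, 9.90 and 26.96 CPM in control and 8.52, 2.10, 19.8, 24.1 and 13.6 CPM in knockout microglia, with overlapping groups and a log2 change of -0.44 (SE 0.62, adjusted p = 0.999, edgeR with Benjamini-Hochberg adjustment). These counts do not show a loss of Arntl in the libraries labelled as knockouts, and a count over the whole gene also takes reads outside a deleted stretch. The 14 microglia markers summed to between 59533 and 68644 CPM in the microglia libraries and to between 8.16 and 23.7 CPM in the retina libraries. In retina 4 of the 14 had no count in each genotype, among them Fcrls and Gpr34 in both. The 16 rod markers summed to between 6719 and 15147 CPM in microglia libraries, against 141449 to 261375 CPM in retina libraries.

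Promoters of some of these genes are known for the ER stress element, a bipartite site for the factor NF-Y and for ATF6 or XBP1. In RefSeq windows of 300 bases (250 before to 50 after a gene's start, GRCm38.p6), 29 of the 33 genes had a window. Both strands were searched for CCAAT followed after 9 bases by CCACG. The element lay in 9 of the 29 genes (31.0%), against 39 of all 32851 windows (0.119%). The sites are shown because these 9 genes share the element. Syvn1 and Derl3 among them are genes of ER-associated degradation, and the chaperone genes Dnajb9, Dnajb11 and Sdf2l1 had windows without it. Each is written in its own orientation, with the element's fixed ends in capitals:
Hspa5, chr2:34772025-34772043: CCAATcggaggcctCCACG
Hsp90b1, distal, chr10:86705638-86705656: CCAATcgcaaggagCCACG
Hsp90b1, proximal, chr10:86705533-86705551: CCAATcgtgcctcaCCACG
Dnajc3, chr14:118937827-118937845: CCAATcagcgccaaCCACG
Creld2, chr15:88819520-88819538: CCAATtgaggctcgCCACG
Calr, chr8:84847075-84847093: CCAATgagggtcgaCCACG
Canx, chr11:50325800-50325818: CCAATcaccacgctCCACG
Pdia6, chr12:17266491-17266509: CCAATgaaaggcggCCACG
Syvn1, chr19:6046532-6046550: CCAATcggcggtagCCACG
Derl3, chr10:75893242-75893260: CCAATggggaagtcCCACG

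The Hspa5 site began at -65 from the gene's start, the Syvn1 site at -44 and the distal Hsp90b1 site at -212, the nearest and the farthest of the 10 being those of Syvn1 and Hsp90b1. Sites in Calr, Derl3 and Creld2 and the proximal site of Hsp90b1 read on the opposite strand to the gene.

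The other 3 motifs were counted in the same windows. TGATGNAA, a composite site of C/EBP and ATF factors, lay in 4 of the 29 genes (13.8%; 3.97% of all windows). These were Chac1, Trib3 and Asns, all outputs of the PERK and ATF4 branch, and Herpud1. The fourth output, Ppp1r15a, had no match in its window. The Trib3 site lay 14 bases after the start and the others before it. These sites are shown, in capitals throughout, because they lie in 3 of the 4 ATF4 outputs:
Chac1, chr2:119351049-119351056: TGATGCAA
Trib3, chr2:152344039-152344046: TGATGTAA
Asns, chr6:7693225-7693232: TGATGAAA
Herpud1, chr8:94386317-94386324: TGATGCAA

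The unfolded protein response element TGACGTGG lay in 0.676% of all windows and in 0 of the 29 genes. The E-box CACGTG, which CLOCK and BMAL1 bind, lay in the windows of Calr, Derl3 and Dnajb9 (10.3% of the 29 genes, against 7.15% of all windows). None of the sites named here overlapped another. A match is a match of letters, and no match says only that the letters are not in that window.

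The levels of the 33 genes spanned the range from abundant to undetected. Scaled for exon length, as TPM, the 5 most abundant in control microglia were Pdia3 (1038 ± 39.8), Calr (789.6 ± 38.1), P4hb (781 ± 84.3), Hspa5 (758 ± 37.5) and Canx (608 ± 68.9; mean ± SD, n = 4 libraries). Together they made 48.9% of the summed TPM of the 33 genes there and 52.9% in control retina, where P4hb (740.5 ± 68.2) and Hspa5 (546 ± 102) led. Calr, P4hb and Hspa5 differed from each other in control microglia by less than their spread, and Pdia3 stood above them. The 3 sensors were at 34.4 TPM or less in every group, with Atf6 at 33.2 ± 10.97, Eif2ak3 at 31.1 ± 5.37 and Ern1 at 10.2 ± 3.85 in control microglia. The lowest levels were those of Trib3, Asns, Chac1 and Derl3 in microglia and of Chac1 and Derl3 in retina. Spread followed level. In control microglia the coefficient of variation had a median of 9.52% over the 18 genes at 100 CPM or more and of 126% over the 4 genes under 10 CPM.

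**Figure D1:**
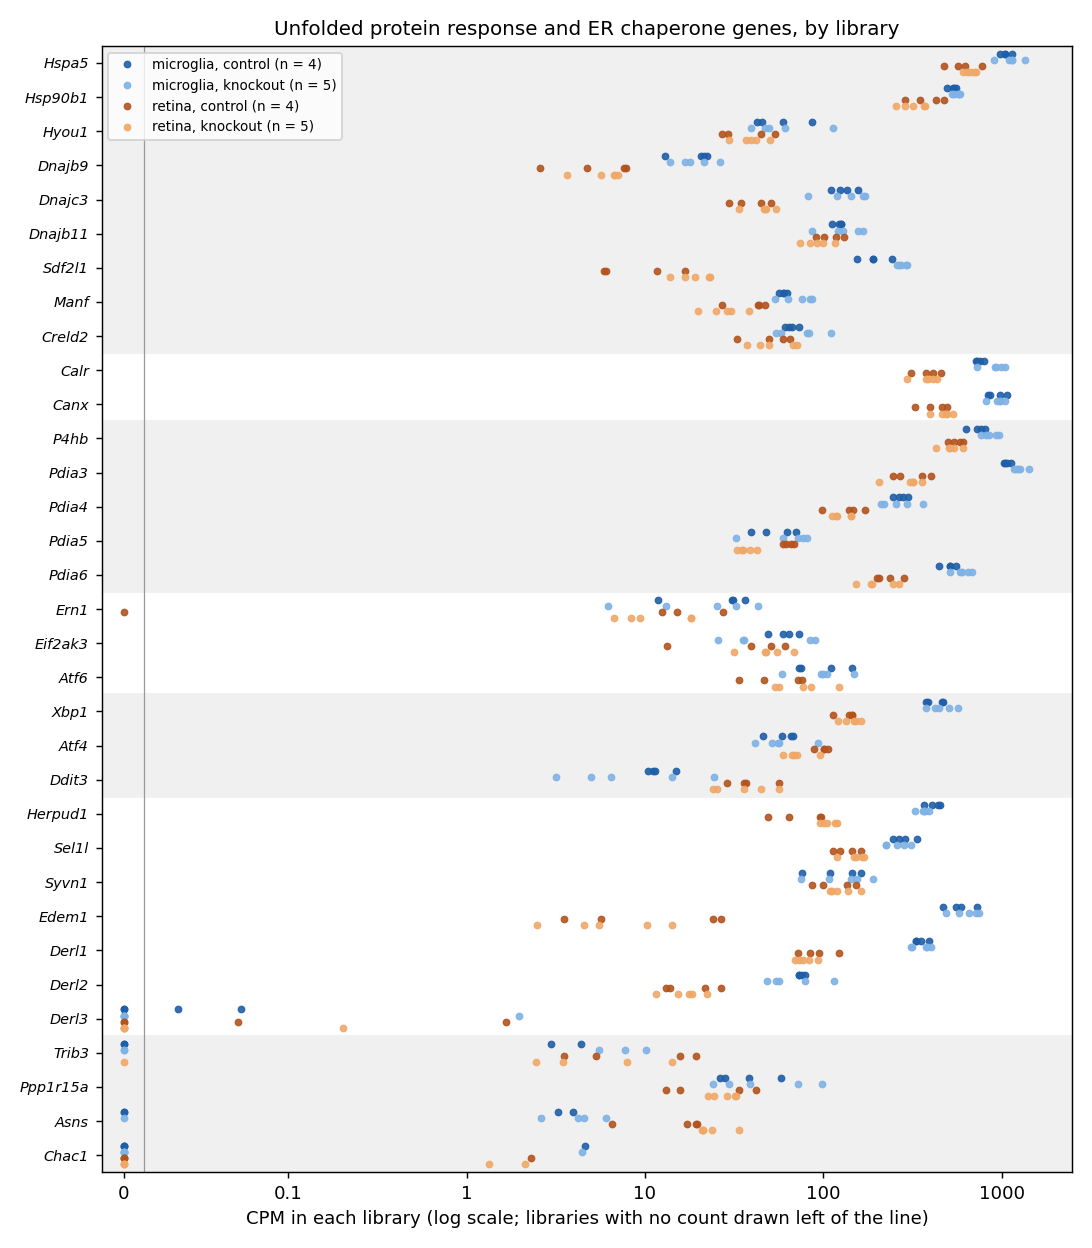
CPM of the 33 genes (rows, grouped by role in shaded blocks) in each of the 18 libraries, on a log axis. Each point is a library, and points left of the line are libraries with no count. Edem1 and Sdf2l1 separate microglia from retina by the widest gaps, and Derl3 and Chac1 have no count in most libraries.

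In both genotypes many of these genes had more transcript in microglia than in the rest of the retina, and few had less. Of the 31 genes that passed the filter on low counts, 15 were higher in microglia and 2 were higher in retina in controls (edgeR, adjusted p under 0.05), where 22.8% and 17.4% of all 15188 genes tested were called in those directions. In the knockout libraries, which share no sample with the controls, 19 were higher in microglia and 2 in retina, beside 23.7% and 21.2% of 15211 genes. The median log2 difference, microglia minus retina, was 0.78 over the 31 genes and 0.02 over all genes in controls. In knockouts it was 0.83 and -0.10. Microglia and retina libraries did not overlap in CPM in 21 of the 31 genes in controls, beside 7520 of 15188 genes. In knockouts they did not overlap in 19 of the 31, beside 6880 of 15211 genes. Separation of single genes below is to be read beside those shares. Of the 31, 15 genes were called higher in microglia in both genotypes and 1, Ddit3, was called higher in retina in both. The share of all genes called in both genotypes was not counted. In bulk samples like these, fewer cells of a type and less RNA per cell cannot be told apart, and values below are means ± SD over 4 control or 5 knockout libraries.

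Among the lumenal chaperones, Sdf2l1, a partner of the DnaJ co-chaperones of BiP, differed most. It had 242, 190.3, 191 and 155 CPM in control microglia and 5.86, 11.7, 6.02 and 16.9 CPM in control retina. In knockouts it had 292, 265, 259, 296 and 272 CPM in microglia and 13.9, 22.8, 23.3, 19.1 and 16.7 CPM in retina. All microglia libraries stood above all retina libraries, by a fitted 18.6-fold in controls (log2 4.22, SE 0.41, adjusted p = 0.000107, edgeR) and 13.7-fold in knockouts (log2 3.77, SE 0.17, adjusted p = 7.38e-08). Hspa5, which encodes BiP, had 1055 ± 64.7 CPM in control and 1132 ± 156 in knockout microglia, and 611 ± 128 in control and 667 ± 47.4 in knockout retina. That difference was smaller, 1.67-fold in controls (adjusted p = 0.00703, edgeR) and 1.61-fold in knockouts (adjusted p = 0.000598), and passed in both.

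The BiP co-chaperones did not move as a block. Dnajc3 (p58IPK), which also restrains PERK, had 132 ± 19.6 CPM in control and 137 ± 36.7 in knockout microglia, and 39.96 ± 9.59 in control and 45.8 ± 7.39 in knockout retina. Dnajb9 (ERdj4), which returns BiP to IRE1, had 19.3 ± 4.27 CPM in control and 19.3 ± 4.76 in knockout microglia, and 5.71 ± 2.53 in control and 6.01 ± 1.41 in knockout retina. Both were called higher in microglia in both genotypes, by 3.20-fold and 3.30-fold in controls. Dnajb11 (ERdj3), a secreted co-chaperone, had 122 ± 6.86 CPM in control and 132 ± 31.7 in knockout microglia, and 110.4 ± 17.9 in control and 93.4 ± 16.2 in knockout retina and was called in neither, except in knockouts without knockout microglia replicate 3 (adjusted p = 0.0173) or in a fit over all 18 libraries (0.0269). Hsp90b1, the ER form of HSP90 also named GRP94, had 531 ± 25.3 CPM in control and 559 ± 24.9 in knockout microglia, and 386 ± 85.3 in control and 322 ± 50.8 in knockout retina. Its difference passed in knockouts (adjusted p = 0.000602, edgeR) and not in controls (adjusted p = 0.0881), where it did without control retina replicate 2 (0.0381), with DESeq2 (0.0481) and in the fit over all 18 libraries (0.022). Manf, a secreted survival factor that binds BiP, had 59.8 ± 2.48 CPM in control and 72.8 ± 13.98 in knockout microglia, and 40.2 ± 8.93 in control and 28.6 ± 6.86 in knockout retina, again passing in knockouts (adjusted p = 0.000784) and not in controls (adjusted p = 0.0658, or 0.0149 by DESeq2). Hyou1, a large HSP70-like exchange factor for BiP, had 58.3 ± 19.99 CPM in control and 62.1 ± 29.5 in knockout microglia, and 38.7 ± 12.8 in control and 39.7 ± 7.53 in knockout retina. Creld2, an ER stress-induced secreted protein, had 66.5 ± 5.16 CPM in control and 77.1 ± 22.5 in knockout microglia, and 51.8 ± 14.2 in control and 54.1 ± 14.7 in knockout retina. Neither Hyou1 nor Creld2 passed in either genotype.

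Both lectin chaperones, which hold glycoproteins during folding, were called higher in microglia in both genotypes. Calr, the soluble calreticulin, had 748 ± 35.1 CPM in control and 923 ± 119 in knockout microglia, and 389 ± 62.7 in control and 381 ± 52.5 in knockout retina. Canx, the membrane-bound calnexin, had 939.5 ± 112 CPM in control and 954 ± 86.8 in knockout microglia, and 421 ± 73.3 in control and 477 ± 50.9 in knockout retina. Fitted differences were 1.87-fold and 2.17-fold in controls and 2.30-fold and 1.90-fold in knockouts.

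The disulfide isomerases form and reshuffle the disulfide bonds of new proteins. Pdia3 (ERp57), which works with the lectin chaperones, had 1071 ± 47.05 CPM in control and 1261 ± 101 in knockout microglia, and 319 ± 74.7 in control and 302 ± 56.8 in knockout retina. Its microglia and retina libraries did not overlap, and it was 3.26-fold higher in microglia in controls (adjusted p = 0.000161, edgeR) and 3.95-fold in knockouts (adjusted p = 2.25e-06). Pdia6, which also dampens the sensors, had 507 ± 44.3 CPM in control and 606 ± 65.1 in knockout microglia, and 232 ± 39.1 in control and 208 ± 47.5 in knockout retina. Pdia4, an isomerase with an added thioredoxin domain, had 274 ± 21.4 CPM in control and 269.6 ± 63.2 in knockout microglia, and 139 ± 30.7 in control and 127 ± 14.8 in knockout retina. Pdia6 and Pdia4 were called higher in microglia in both genotypes, 2.12-fold and 1.91-fold in controls. P4hb, the founding member PDI and a subunit of prolyl 4-hydroxylase, had 735 ± 75.4 CPM in control and 865 ± 82.6 in knockout microglia, and 559.8 ± 48.3 in control and 519.6 ± 63.2 in knockout retina. Its 1.58-fold difference passed in knockouts, and its 1.27-fold difference in controls did not (adjusted p = 0.057, edgeR). The control difference of P4hb passed without control microglia replicate 1 (adjusted p = 0.0273), with DESeq2 (0.0112) or its size factors (0.0473), and in the fit over all 18 libraries (0.015). Pdia5 had 55.1 ± 14.2 CPM in control and 64.3 ± 19.6 in knockout microglia, and 64.1 ± 4.19 in control and 36.9 ± 3.73 in knockout retina. It was called higher in microglia in knockouts (log2 0.72, SE 0.24, adjusted p = 0.0324), and its log2 difference in controls was -0.26 (SE 0.21, adjusted p = 0.353). The knockout call was lost on leaving out replicate 1 or 3 of knockout microglia, or replicate 1, 2 or 3 of knockout retina (adjusted p 0.0511 to 0.0587), and without the filter on low counts (0.0541).

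None of the sensors passed in either genotype with all libraries in. Ern1, the IRE1 kinase and endonuclease that splices Xbp1 RNA, had 27.5 ± 10.7 CPM in control and 24.1 ± 14.8 in knockout microglia, and 13.7 ± 11.2 in control and 12.1 ± 5.56 in knockout retina, with 0 counts in 1 control retina library. Eif2ak3, the PERK kinase that phosphorylates eIF2alpha, had 61.5 ± 10.2 CPM in control and 54.4 ± 30.3 in knockout microglia, and 41.1 ± 20.6 in control and 50.01 ± 13.4 in knockout retina. Atf6, the membrane-bound factor, had 101 ± 33.98 CPM in control and 102 ± 31.7 in knockout microglia, and 57.01 ± 20.4 in control and 78.9 ± 27.5 in knockout retina. All 6 sensor differences (microglia minus retina) were positive. Their 95% intervals were wide, for instance -2.01 to 3.91 for Ern1 and -0.44 to 1.51 for Eif2ak3 in controls, and in 5 of the 6 reached below 0. Without knockout microglia replicate 3, Ern1 was called higher in microglia in knockouts (log2 1.22, adjusted p = 0.0493, edgeR).

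The transcription factors parted ways. Xbp1, the factor that IRE1 activates by splicing, had 376, 473, 461 and 386 CPM in control microglia and 145, 145, 114 and 139 CPM in control retina, 448, 572, 508, 424 and 375 CPM in knockout microglia and 135, 122, 148, 152 and 163 CPM in knockout retina. No retina library reached the lowest microglia library. The difference was 3.03-fold in controls (adjusted p = 6.88e-05, edgeR) and 3.06-fold in knockouts (adjusted p = 6.52e-06). Gene counts do not separate spliced from unspliced Xbp1 RNA. Ddit3 (CHOP), the factor of the late, death-promoting phase, ran the other way, with 14.9, 11.2, 10.5 and 11.3 CPM in control microglia and 28.7, 56.8, 35.9 and 36.97 CPM in control retina. In knockouts Ddit3 had 6.50, 24.6, 4.98, 3.18 and 14.3 CPM in microglia and 56.3, 24.2, 36.2, 44.8 and 25.3 CPM in retina, where 1 microglia library entered the retina range. Its log2 difference was -1.77 (SE 0.28, adjusted p = 0.00137, edgeR) in controls and -1.88 (SE 0.56, adjusted p = 0.0189) in knockouts. Exons of Ddit3 share bases with Mars and Gm4189 on the opposite strand, and whether counting used strand is not given in the sources used here. Atf4, the factor translated when PERK is active, had 59.6 ± 9.74 CPM in control and 59.9 ± 19.98 in knockout microglia, and 99.3 ± 7.35 in control and 72.5 ± 14 in knockout retina. It was called higher in retina in controls (log2 -0.78, SE 0.17, adjusted p = 0.00628) and not in knockouts (log2 -0.35, SE 0.23, adjusted p = 0.24).

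The widest difference, that of Edem1, lay in ER-associated degradation, which pulls misfolded proteins out of the ER. Edem1 (chr6:108828641-108859356, plus strand), a mannosidase-like protein that hands glycoproteins to the export machinery, had 471, 725, 594 and 555 CPM in control microglia and 5.69, 24.1, 26.8 and 3.51 CPM in control retina. In knockouts it had 655, 488, 721, 743 and 579 CPM in microglia and 10.3, 4.54, 14.2, 2.48 and 5.55 CPM in retina. The lowest microglia library thus stood far above the highest retina library in either genotype. The fitted difference was 37.8-fold in controls (log2 5.24, SE 0.74, adjusted p = 0.000795, edgeR) and 81.4-fold in knockouts (log2 6.35, SE 0.50, adjusted p = 3.66e-06). Herpud1, a stress-induced scaffold of the export complex, had 416 ± 36.6 CPM in control and 364 ± 23.1 in knockout microglia, and 76.5 ± 23.8 in control and 107 ± 10.2 in knockout retina, and was 5.29-fold and 3.21-fold higher in microglia.

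Derl1, a channel-like protein of the export complex, had 352 ± 28.4 CPM in control and 357 ± 42.5 in knockout microglia, and 93.6 ± 21.8 in control and 79.3 ± 9.59 in knockout retina. Derl2, its close relative, had 75.4 ± 2.59 CPM in control and 70.8 ± 27.6 in knockout microglia, and 18.8 ± 6.54 in control and 17.1 ± 3.99 in knockout retina. Sel1l, the adaptor of the ubiquitin ligase HRD1, had 283 ± 38.8 CPM in control and 261 ± 37.9 in knockout microglia, and 137 ± 22.4 in control and 151 ± 19.5 in knockout retina. All 3 were called higher in microglia in both genotypes, by 3.65-fold, 3.88-fold and 2.01-fold in controls. Syvn1, which encodes HRD1 itself, had 123 ± 38.3 CPM in control and 135 ± 44.6 in knockout microglia, and 119 ± 30.8 in control and 129 ± 22.5 in knockout retina, with fitted log2 differences of -0.65 to 0.64 (95% interval) in controls and -0.55 to 0.52 in knockouts. Derl3, the third derlin, was at the edge of detection, with 3, 74, 83 and 8 reads summed over the control microglia, knockout microglia, control retina and knockout retina libraries, and was not tested.

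Of the 4 outputs of the PERK and ATF4 branch, 3 were under 10 CPM in microglia. Asns, asparagine synthetase, had 0, 0, 3.93 and 3.25 CPM in control and 4.20, 0, 4.58, 2.61 and 6.04 CPM in knockout microglia, and 19.5, 17.2, 6.51 and 19.4 CPM in control and 21.1, 33.6, 23.8, 21.3 and 20.9 CPM in knockout retina. Every retina library stood above every microglia library. The difference passed in knockouts (log2 -2.87, SE 1.00, adjusted p = 0.0385, edgeR) and not in controls (log2 -3.15, SE 1.75, adjusted p = 0.191). The knockout call was lost on leaving out replicate 1, 3 or 4 of knockout microglia or any replicate of knockout retina (adjusted p 0.0615 to 0.0799), without the filter on low counts (0.0553) and in the fit over all 18 libraries (0.0977). Trib3, a pseudokinase that ATF4 and CHOP induce, had 1.84 ± 2.20 CPM in control and 4.69 ± 4.58 in knockout microglia, and 11 ± 7.76 in control and 5.60 ± 5.58 in knockout retina. Ppp1r15a (GADD34), which restarts translation by dephosphorylating eIF2alpha, had 37.6 ± 14.5 CPM in control and 52.6 ± 31.7 in knockout microglia, and 26.1 ± 13.9 in control and 28.1 ± 4.37 in knockout retina. Neither passed in either genotype, except Ppp1r15a in knockouts without knockout microglia replicate 4 (adjusted p = 0.038). Chac1, a glutathione-degrading enzyme, had counts in 1 of 4, 1 of 5, 1 of 4 and 2 of 5 libraries of the same groups in that order, none above 4.62 CPM. It was tested neither between fractions nor between genotypes within a fraction, and entered only the interaction test.

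**Figure D2:**
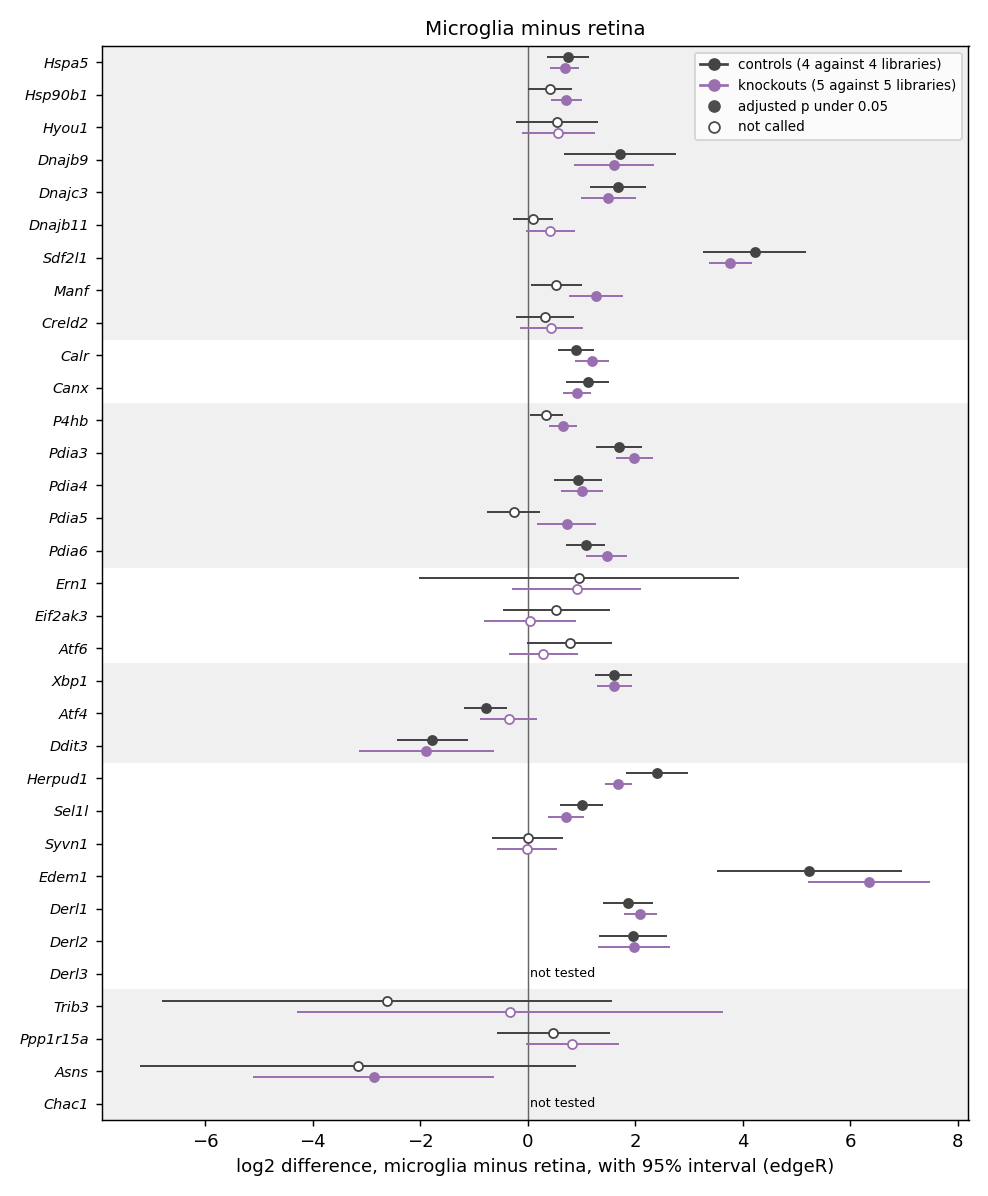
Fitted log2 difference of each gene, microglia minus retina, with its 95% interval (edgeR), in controls and in knockouts. Filled points have an adjusted p under 0.05. Most chaperone, isomerase and degradation genes lie right of 0, and Ddit3, Atf4, Asns and Trib3 lie left of it.

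Other marker and stress lists moved with the fractions too. The 17 genes that tissue dissociation is known to induce summed to between 2700 and 4012 CPM in microglia libraries and to between 578 and 1086 CPM in retina libraries. In controls 11 of the 17 were called higher in microglia and 3 higher in retina (22.8% and 17.4% of all genes). In knockouts 9 and 3 were (23.7% and 21.2% of all genes). The part of these 17 genes in the results was not tested. Plasma cells carry a strong unfolded protein response. The microglia libraries held 678 to 1007 CPM of 8 B cell and plasma cell markers, most of it Ighm (737 CPM in control and 759.7 CPM in knockout microglia). Among the 8, Mzb1 was at 0 CPM in control and 0.0689 CPM in knockout microglia, and Jchain at 0.554 and 4.90 CPM, against 4.88 and 4.99 CPM in retina. Of the 3 genes of this list tested, 2 were called higher in microglia in each genotype, beside 22.8% and 23.7% of all genes. The part of B cells and plasma cells in these results was not tested.

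The differences between fractions were also read by the ER stress element, with no test between the sets. In controls 5 of the 8 tested genes with the element were called higher in microglia and none higher in retina, with a median log2 difference of 0.82 (-0.00 to 1.68). Of the 19 without it 9 were called higher in microglia and 2, Atf4 and Ddit3, higher in retina. Their median was 0.93 (-3.15 to 5.24). Of all genes tested in controls, 22.8% were called higher in microglia and 17.4% higher in retina. In knockouts the counts higher in microglia were 6 of 8 and 11 of 19, with medians of 0.82 and 0.83. The 2 genes called higher in retina, Ddit3 and Asns, were again without the element. Of all genes tested in knockouts, 23.7% were called higher in microglia and 21.2% higher in retina. With 8 genes, the lack of calls higher in retina is not read as a trait of the element.

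The knockout comparison in microglia asked whether the ER genes of microglia differ between the mice labelled as knockouts and the controls. None of the 31 genes tested was called (edgeR, adjusted p under 0.05), where 17 of all 14835 genes (0.115%) were. At an unadjusted p under 0.05 there were 6 of 31, beside 5.76% of all genes, and DESeq2 called 2, Sdf2l1 and Pdia3, beside 1.60%. Log2 changes, knockout minus control, were positive in 23 genes and negative in 8, with a median of 0.10 against -0.01 over all genes. The 2 DESeq2 genes were also the only members of the 31 whose control and knockout libraries did not overlap, beside 3.30% of all genes.

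Sdf2l1 (chr16:17130138-17132383, minus strand) had 242, 190.3, 191 and 155 CPM in control and 292, 265, 259, 296 and 272 CPM in knockout microglia. The lowest knockout library stood above the highest control. The log2 change was 0.51 (SE 0.13, 1.42-fold), with an adjusted p of 0.32 by edgeR and 0.0052 by DESeq2. In the authors' deposited table it has a log2 change of 0.49 and an adjusted p of 0.195.

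Pdia3 (chr2:121413775-121438687, plus strand) had 1070.2, 1137, 1051 and 1028 CPM in control and 1267, 1429, 1242, 1168 and 1199.5 CPM in knockout microglia. Here too no knockout library reached down to the controls. The log2 change was 0.23 (SE 0.07, 1.18-fold), with an adjusted p of 0.443 by edgeR and 0.0468 by DESeq2. Its exons share bases with Catsper2 on the opposite strand.

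Calr, Pdia6 and P4hb followed in order of p. Calr had 716, 795, 753 and 728 CPM across the control libraries against 999, 930.5, 914, 1039 and 731 CPM across the knockout ones, where 4 of the 5 knockout libraries exceeded all controls (log2 0.30, SE 0.10, adjusted p = 0.637, edgeR). Pdia6 had 552, 517, 511 and 446 CPM across the control libraries against 684, 587, 602, 645 and 511 CPM across the knockout ones, again with 4 of 5 above all controls (log2 0.26, SE 0.10, adjusted p = 0.765). P4hb had 631, 805, 771 and 732 CPM across the control libraries against 763, 814, 966, 929 and 851 CPM across the knockout ones (log2 0.23, SE 0.10, adjusted p = 0.822), and here as well 4 of 5 knockout libraries exceeded all controls. Herpud1 was the one gene with an unadjusted p under 0.05 and a negative change (log2 -0.19, SE 0.09, adjusted p = 0.863).

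By role, the summed CPM of the 5 disulfide isomerases ran from 2513 to 2789 in control and from 2804 to 3256 in knockout microglia, without overlap. That sum is led by Pdia3 and P4hb. The 9 lumenal chaperones summed to between 2130 and 2358 CPM in controls and to between 2208 and 2636 CPM in knockouts, and the 7 degradation genes to between 1697 and 2017 CPM and to between 1609 and 1981 CPM. Among the chaperone and isomerase genes the largest p belonged to genes with changes near 0, such as Dnajb9 (log2 -0.01, 95% interval -0.64 to 0.63), Pdia4 (-0.02, -0.39 to 0.34) and Canx (0.02, -0.20 to 0.25).

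The regulators showed no change past the test in microglia. Xbp1 had a log2 change of 0.13 (95% interval -0.16 to 0.43), Atf4 of 0.01 (-0.54 to 0.55) and Ddit3 of -0.17 (-1.49 to 1.16). The sensors Ern1, Eif2ak3 and Atf6 had log2 changes of -0.19, -0.18 and 0.01. Trib3 and Asns had the largest fitted values, 1.34 and 0.95, with standard errors of 2.22 and 1.88. Both had libraries with no count in each group.

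Marker sums of other cell types overlapped between control and knockout microglia. The 11 monocyte, macrophage and granulocyte markers summed to between 79.2 and 522 CPM in controls and to between 193 and 652 CPM in knockouts, the 8 Müller glia markers to between 1876 and 7210 CPM and to between 4066 and 6330 CPM. No marker of either list was at 0 in either group, and their part in the values above was not tested. The Müller glia sum had medians of 2979 CPM in control microglia and 1978 CPM in control retina, and of 5921 and 3316 CPM in knockouts. The median log2 difference of the 8, microglia minus retina, was -1.17 in controls and -2.23 in knockouts. That sum may therefore rest on few of the 8. Of the 14 microglia markers, edgeR called 1 lower in knockout microglia and DESeq2 called 5 (0.115% and 1.60% of all genes). Control and knockout microglia libraries did not overlap in 4 of the 14 (3.30% of all genes). The part of these markers in the values above was not tested.

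**Figure D3:**
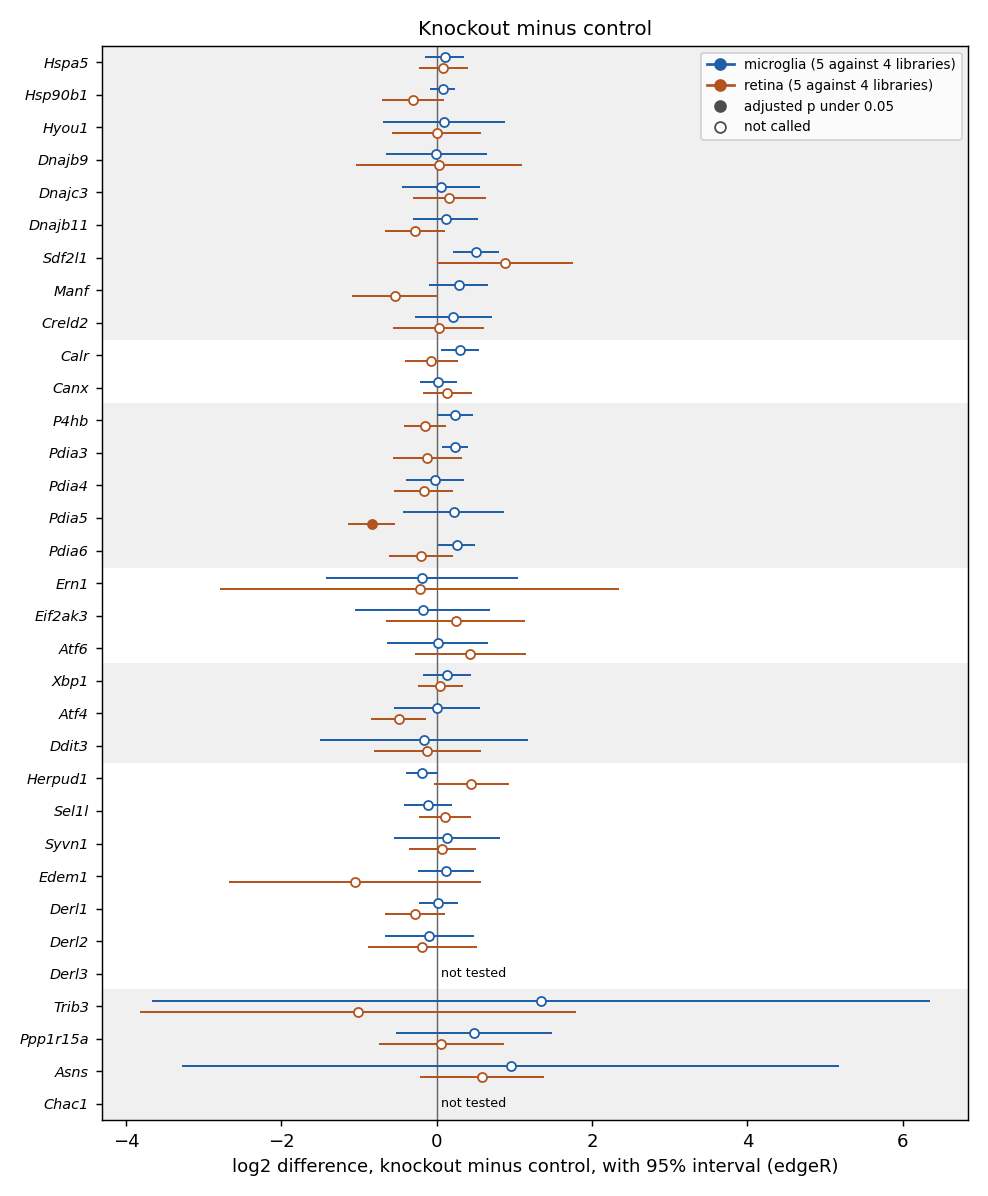
Fitted log2 change of each gene, knockout minus control, with its 95% interval (edgeR), in microglia and in retina. Pdia5 in retina is the only filled point, that is, the only one with an adjusted p under 0.05.

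In the retina fraction, which the microglial knockout does not target by its name, the question was whether the cells around the microglia differed. Of the 31 genes tested, 1 was called, Pdia5, which was lower in knockouts. Among all 15332 genes, 255 (1.66%) were called. At an unadjusted p under 0.05 there were 3 genes of 31 against 14.2% of all genes, DESeq2 called 1 (7.72% of all genes), and 2 had control and knockout libraries that did not overlap (8.71%). Counts of 1 to 3 among 31 genes are near or below these shares. Log2 changes were positive in 14 genes and negative in 17, with a median of -0.07 against 0.00 over all genes.

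Pdia5 (chr16:35397312-35490873, minus strand), a disulfide isomerase of the ER lumen, had 66.3, 59.4, 61.9 and 68.7 CPM in control retina and 35.6, 34.8, 32.99, 42.4 and 38.9 CPM in knockout retina. All 5 knockout libraries stood below all 4 controls. The level fell to 0.56 of the control level (log2 -0.84, SE 0.13, 95% interval -1.13 to -0.55, adjusted p = 0.0189, edgeR; adjusted p = 8.18e-09, DESeq2). The authors' deposited table gives it a log2 change of -0.84 and an adjusted p of 0.0125. The call did not pass in a fit over all 18 libraries (log2 -0.79, adjusted p = 0.12) or without knockout retina replicate 3 (log2 -0.79, adjusted p = 0.0523).

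Cell-type markers moved with genotype in the same libraries. The 16 rod markers summed to between 178217 and 261375 CPM in control and to between 141449 and 174946 CPM in knockout retina, without overlap, and 6 of the 16 were called lower. The 9 cone markers summed to between 795 and 1827 CPM in controls and to between 2696 and 6452 CPM in knockouts, and the 10 bipolar cell markers to between 459 and 999 CPM and to between 1649 and 3061 CPM. No marker of these 3 lists was at 0 in either group. With the rod marker level as a covariate the log2 change of Pdia5 was -0.94 (SE 0.29, adjusted p = 0.9997, edgeR), and that fit called 0 genes of the whole table. The 9 amacrine and horizontal cell markers summed to between 74.8 and 197 CPM in controls, with 2 at 0, and to between 249.7 and 367 CPM in knockouts. The 11 monocyte, macrophage and granulocyte markers summed to between 0.224 and 5.10 CPM and to between 16.3 and 19.0 CPM, with 6 at 0 in each group. The 8 Müller glia markers all had positive log2 changes, none called, and sums that overlapped (1210.1 to 3168 and 2398 to 4679 CPM). The part of these other cell types in the Pdia5 result was not tested.

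The next genes by p in retina were Atf4, Sdf2l1, Manf, Herpud1 and Hsp90b1, none of them called. Atf4 had 89.3, 101, 107 and 101 CPM in control and 66.6, 71.5, 68.8, 59.5 and 96.3 CPM in knockout retina, where 4 of the 5 knockout libraries were below all controls (log2 -0.49, SE 0.15, adjusted p = 0.157, edgeR). Without knockout retina replicate 5, the one library within the control range, it was called (log2 -0.62, adjusted p = 0.0373). Sdf2l1 had 5.86, 11.7, 6.02 and 16.9 CPM across the control libraries against 13.9, 22.8, 23.3, 19.1 and 16.7 CPM across the knockout ones, with a log2 change of 0.88 (SE 0.38, adjusted p = 0.338) and overlapping groups. The change had the same sign as in microglia.

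Manf had 42.9, 47.1, 27.1 and 43.7 CPM across the control libraries against 28.7, 19.9, 30.6, 25.2 and 38.4 CPM across the knockout ones (log2 -0.53, SE 0.24, adjusted p = 0.362, edgeR). Herpud1 had 96.7, 48.7, 64.7 and 96.04 CPM across the control libraries against 117, 95.5, 100.4, 119 and 105 CPM across the knockout ones (log2 0.44, SE 0.21, adjusted p = 0.392). Hsp90b1 had 431, 478, 347 and 287 CPM across the control libraries against 319, 257, 288, 369.6 and 375 CPM across the knockout ones (log2 -0.30, SE 0.17, adjusted p = 0.507). In all 3 the groups overlapped. Asns was the other gene besides Pdia5 without overlap between the groups (log2 0.58, SE 0.35, adjusted p = 0.538).

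The remaining retina changes were small against their errors. Hspa5 had a log2 change of 0.09 (95% interval -0.22 to 0.39), Calr of -0.07 (-0.39 to 0.25), Canx of 0.14 (-0.16 to 0.44) and Xbp1 of 0.05 (-0.23 to 0.32). All 5 disulfide isomerases had negative changes, from -0.12 in Pdia3 to -0.84 in Pdia5, of which Pdia5 alone passed. Edem1, already scarce in retina, had the most negative fitted value, -1.05 (SE 0.71, adjusted p = 0.609, edgeR). With the rod covariate 11 of the retina changes, none called in either fit, took the other sign and moved by more than their standard error.

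**Figure D4:**
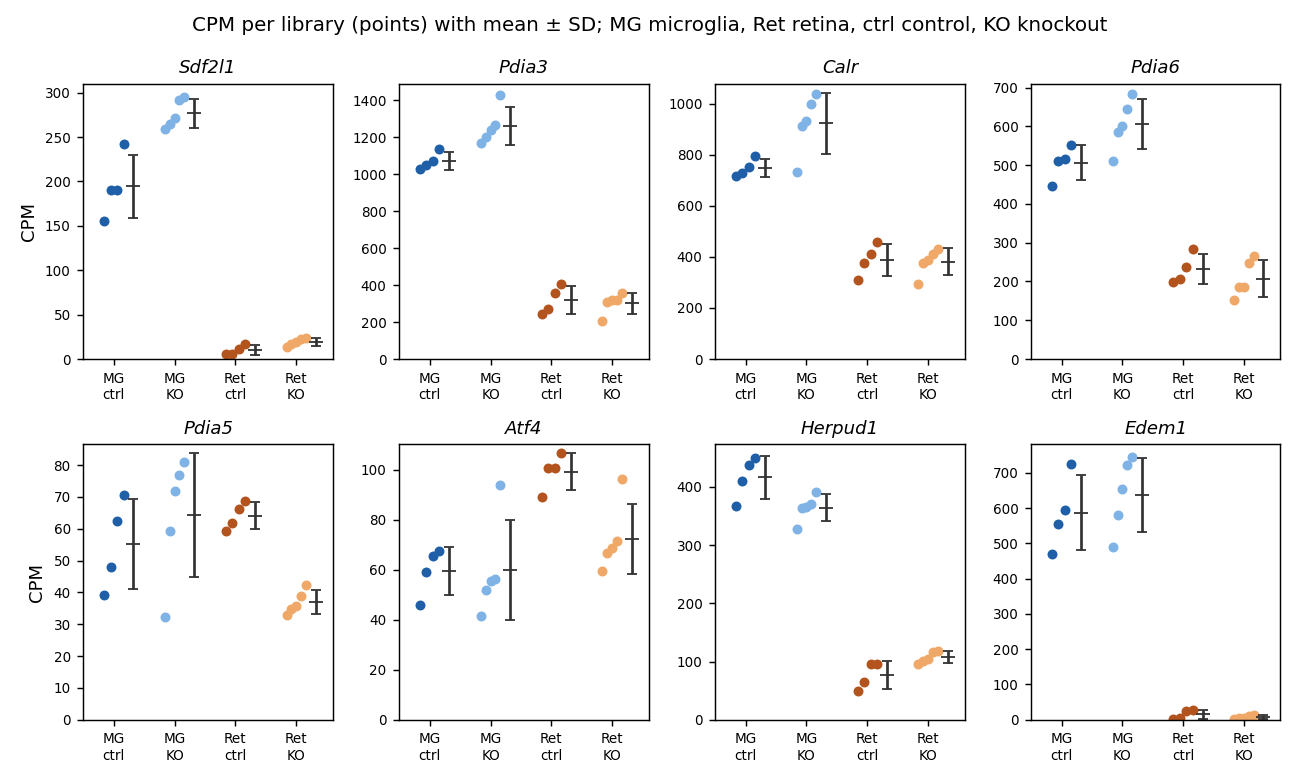
CPM of 8 of the genes in each library (points), with mean ± SD beside them, on linear axes that start at 0. Sdf2l1 and Pdia3 are without overlap between control and knockout microglia, Pdia5 is without overlap between control and knockout retina, and Edem1 is at 26.8 CPM or less in every retina library.

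Whether the knockout change differed between the fractions was tested as an interaction over all 18 libraries. Of the 32 genes tested 0 were called by edgeR, beside 85 of 18128 genes (0.469%). At an unadjusted p under 0.05 there were 4 (12.5% of all genes), and DESeq2 called 1, Pdia5 (6.01% of all genes). The log2 difference, microglia change minus retina change, was 1.02 for Pdia5 (SE 0.33, adjusted p = 0.19 by edgeR and 0.0324 by DESeq2). Herpud1 followed at -0.68 (SE 0.24, adjusted p = 0.228, edgeR), Manf at 0.78 (SE 0.30, adjusted p = 0.273) and P4hb at 0.34 (SE 0.16, adjusted p = 0.385). The 5 disulfide isomerases all had positive differences, with a median of 0.34, while the median over all genes was -0.13. For Hspa5 the difference was -0.02 with a 95% interval of -0.42 to 0.37.

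Other genes of the same pathways were read alongside in 5 lists. Of them edgeR called none in either knockout comparison, beside 0.115% of all genes in microglia and 1.66% in retina. The lists held 26 other ER folding factors, 23 other degradation genes, 23 genes of translocation into the ER, 21 other sensors and regulators and 28 other genes of the integrated stress response. In microglia 24, 23, 23, 20 and 24 of them were tested, and 2, 6, 4, 3 and 1 had an unadjusted p under 0.05 (5.76% of all genes). DESeq2 called 0, 1, 1, 2 and 1 of them (1.60% of all genes). Their median log2 changes were 0.16, 0.14, 0.08, 0.21 and -0.02. In retina 23, 23, 22, 19 and 26 were tested, and 1, 3, 1, 2 and 5 had an unadjusted p under 0.05 (14.2% of all genes). DESeq2 called 0, 1, 1, 1 and 2 of them (7.72% of all genes). Medians there were -0.08, -0.02, -0.23, -0.12 and 0.16.

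The 2 smallest p of each list in microglia belonged to Erp29 (log2 0.29) and Selenof (0.25) among folding factors, to Nploc4 (0.72), a cofactor of the p97 extractor, and Herpud2 (-0.30) among degradation genes, and to Srp14 (0.36) and Sec11c (0.37) in translocation. Among regulators they were Bbc3 (1.26, SE 0.21, adjusted p = 0.072, edgeR) and Bax (0.88, SE 0.17, adjusted p = 0.13), both pro-apoptotic members of the BCL2 family. In the integrated stress response list they were Atf5 (2.66, SE 0.54, adjusted p = 0.163), a factor related to ATF4, and Slc3a2 (0.17). Bbc3 had 30.6, 26.3, 29.9 and 26.3 CPM in control and 51.9, 97.8, 69.6, 65.1 and 53.9 CPM in knockout microglia. All knockout libraries exceeded all controls, where 3.30% of all genes had no overlap between the groups.

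In retina the 2 smallest p of each list belonged to Selenof (log2 -0.45) and Sdf2 (-0.28), to Edem3 (1.49, SE 0.37, adjusted p = 0.089, edgeR) and Selenok (-0.32), to Sec11a (-0.68) and Srp14 (-0.36), to Creb3l2 (2.59) and Eif2s1 (-0.66), and to Aars (-0.42, SE 0.09, adjusted p = 0.0622) and Atf3 (-1.30, SE 0.35, adjusted p = 0.103). Edem3 is a relative of Edem1 that trims mannose from misfolded glycoproteins. Beside 0.469% of all genes, it was the 1 gene of these lists called in the interaction (log2 -2.20, SE 0.44, adjusted p = 0.0372, edgeR). It had 53.01, 52.5, 47.8 and 57.5 CPM in control and 31.2, 20.4, 36.6, 42.8 and 34.5 CPM in knockout microglia, and 27.3, 25.6, 9.85 and 10.6 CPM in control and 54.8, 72.3, 40.8, 40.6 and 55.1 CPM in knockout retina. Its groups overlapped in neither fraction, where 3.30% of all genes in microglia and 8.71% in retina had no overlap. Edem3 was lower in knockouts in microglia and higher in knockouts in retina. That call was lost without any 1 replicate of control microglia, without replicate 1 or 5 of knockout microglia, without replicate 3 of control retina or without replicate 1 or 2 of knockout retina (adjusted p 0.0525 to 0.0741), and without the filter on low counts (0.0644).

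The same lists were also compared between fractions. In controls 10 of 24 folding factors tested were called higher in microglia and 3 higher in retina, 8 and 2 of 23 degradation genes, 8 and 1 of 22 translocation genes, 10 and 1 of 20 regulators, and 9 and 4 of 24 integrated stress response genes. In knockouts the counts were 10 and 2 of 24, 9 and 2 of 23, 11 and 2 of 23, 12 and 1 of 20, and 8 and 3 of 26. Of all genes tested, 22.8% were called higher in microglia and 17.4% higher in retina in controls, and 23.7% and 21.2% in knockouts. Edem2, the other EDEM relative, was higher in microglia by a log2 difference of 4.04 in controls and 4.24 in knockouts. Tram1, Spcs3 and Ssr4, all of the translocation machinery, were also called higher in microglia in both genotypes.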

How the data were processed

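RNA of flow-sorted cells was amplified with the SMARTer Ultra Low kit and sequenced, per the labels' protocols. The authors deposited 1 table of whole-number counts per gene for 18 libraries. The submitters' processing notes name DRAGEN, STAR 2.7.9a, Subread, featureCounts, edgeR, limma and GRCm38, without their roles. The strand setting is not given in the sources used here. The authors also deposited tables of their comparisons with log2 fold changes, p-values and a likelihood ratio statistic (LR, held as a score and not used here), per the file headers.

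Of 55774 lines, 287 repeated an Ensembl ID and were left out. Members and gene lists were chosen with earlier results of these data known. Each comparison used its own groups in edgeR 4.0.16 (filterByExpr, TMM, quasi-likelihood F test, R 4.3.3), with Benjamini-Hochberg adjustment over all genes tested and a threshold of 0.05. The SE is the log2 change over the square root of F, and intervals are 95%. DESeq2 1.42.0 was an alternative, beside DESeq2 size factors, no filter, a replicate block, 1 fit over all libraries, a rod marker covariate and leaving out each library. CPM share 1 TMM scale. TPM used exon lengths of GENCODE M21, which held 55227 of the 55487 genes. The code was tested on simulated data. The text names every member, gives values in every library for members called and the 5 with the smallest p in each knockout comparison, and names the 2 smallest p of each other pathway list. Xbp1, Ddit3, Edem1, Asns and Bbc3 were given by library, and Edem2, Tram1, Spcs3 and Ssr4 named, after their values were seen. A planned comparison of protein ends was not made, because no protein sequences were used here. Promoter windows are from RefSeq (GRCm38.p6).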

Additional observations from a re-analysis of the deposited data

Results flagged for a closer look

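In 132 groups of libraries, 1 for each member and group, 9 libraries stood apart from the rest of their group by Dixon's test, where chance flags about 1 in 20. Xbp1 had 113.6 CPM in control retina replicate 3, against 139 to 145 CPM in the others. Atf4 had 94.0 CPM in knockout microglia replicate 2, against 41.6 to 56.4 CPM. Asns had 33.6 CPM in knockout retina replicate 2, against 20.9 to 23.8 CPM.

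The other 6 were single libraries with reads of a gene that was at or near 0 in the rest of the group. Derl3 had 1.96 CPM in knockout microglia replicate 5, 1.67 CPM in control retina replicate 4 and 0.204 CPM in knockout retina replicate 3. Chac1 had 4.62 CPM in control microglia replicate 2, 4.43 CPM in knockout microglia replicate 3 and 2.29 CPM in control retina replicate 4.

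The knockout change of Edem3 differed between microglia and retina by a log2 difference of -2.20 (SE 0.44, adjusted p = 0.0372, edgeR's interaction test). That test called 0.469% of all genes. Edem3 was lower in all 5 knockout microglia libraries and higher in all 5 knockout retina libraries than in their controls. The call held in 9 of the 18 fits that each left out 1 library (adjusted p 0.0185 to 0.0741), and was lost without the filter on low counts (0.0644) and with the replicate block (0.294).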

How the results depend on the processing

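The number of members called moved from 0 to 2 in microglia and from 0 to 1 in the interaction with DESeq2. In retina it moved from 1 to 0 with a replicate block, in a fit over all 18 libraries and with the rod covariate, and ran from 0 to 2 on leaving out each library. In the 2 knockout comparisons the replicate block joined control and knockout libraries of the same number, which differ in genotype and so are different mice. The values and counts it gave there are therefore no check for paired samples. With the replicate block Pdia5 was at -0.86 in retina (adjusted p = 0.135, edgeR) and Edem3 at -2.35 in the interaction (adjusted p = 0.294). With it the fraction calls were 17 in controls and 19 in knockouts. The block ended the fraction calls of Dnajb9 in controls (1.81, adjusted p = 0.0659) and of Pdia5 (0.66, 0.109) and Asns (-3.20, 0.111) in knockouts, and called Atf6 in controls (0.80, 0.0307). Between microglia and retina libraries of one genotype, deviations of same-numbered samples had correlations of -0.0156 to 0.0485. The same-numbered retina library was the best match for controls 2 and 4 and for knockouts 1, 4 and 5. Control and knockout libraries of one number and fraction had correlations of -0.1132 to 0.0555. All 17 correlations were low, so the numbers may not pair the samples. Xist was at 42.0 CPM in control microglia replicate 1 and at 0.0766 CPM in control retina replicate 1, so the block joins 2 libraries that differ in Xist. Genes called over the whole table, 17 in microglia and 255 in retina, were 2 and 0 with the replicate block, 8 and 120 without the filter, 237 and 1184 with DESeq2, and 4 to 21 and 96 to 342 without 1 library. In microglia the fit over all libraries called 32. The 85 interaction calls became 9 with the block, 1090 with DESeq2, and 51 to 143 without 1 library. With the rod covariate these retina log2 changes, none called, took the other sign by more than their SE: Hsp90b1 0.13, Hyou1 0.81, Dnajb11 0.27, Calr 0.20, P4hb 0.30, Pdia4 0.42, Ddit3 0.29, Herpud1 -0.15, Sel1l -0.45, Edem1 0.51, Derl1 0.12, Selenok 0.0326 and Eif2s1 0.28. The Chac1 interaction ran from -8.78 to 7.83 on leaving out each library. The causes were not tested. Of 536 values of the fraction calls under alternatives, 517 kept their call, 19 lost it and 0 changed sign. The floor of 3 counts, 0.0631 to 0.0929 CPM, limits Derl3 in control microglia, with 3 reads in all. Chac1, Trib3 and Asns were at 0 in some microglia libraries and above that floor in others of the same group.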
